A study of Mus musculus with 25 samples.

Results

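The data are those of the peri-injured regions 6, 9, 10 and 12 of a mouse lung 14 days after induction of the surfactant protein C mutation SP-C I73T. In each region, the GeoMx instrument collected the probe tags of an immune segment (CD45+CD68+ cells, the CD68 segment) and of a non-immune segment (DNA-positive area without CD45). These 8 segments, 4 of each kind, were chosen by their labels out of 24 tissue segments in 12 regions. All animals carried the SP-C I73T allele, from which a neomycin cassette is removed by tamoxifen. The 4 peri-injured and the 5 injured regions are labelled as male, treated once by gavage with 175 mg/kg tamoxifen in corn oil, at day 14, whereas the methods of the study give another schedule of tamoxifen. The 3 healthy regions are labelled as male, untreated, at day 0. The 9 regions at day 14 came from 1 mouse and the 3 healthy regions from another, and regions had been selected on histology. Regions of a mouse are technical replicates, and a p-value taken over them overstates how firmly the result holds in other animals. A difference between healthy and injured lung cannot be told apart from one between the 2 mice.

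CD68 is a lysosomal glycoprotein that is abundant in macrophages, and CD45 is carried by blood-derived cells. In the alveoli, resident macrophages clear surfactant, and monocyte-derived macrophages enter after epithelial injury. The SP-C I73T mutation acts in alveolar type II cells, which make surfactant, and these cells belong to the non-immune segments together with other epithelial, endothelial and stromal cells. The comparison of both segments of a region measures which transcripts the macrophage-rich and the surrounding tissue hold in unequal shares at the border of an injury. Each of the 20175 probes is listed by a tag identifier, and the files do not pair these identifiers with genes. The segment labels could therefore not be checked against macrophage or epithelial marker genes, and no gene is named. In tissue segments, fewer cells of a type and less RNA per cell cannot be told apart.

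The CD68 segments were small and shallow. Their total counts were 93567, 21955, 89506 and 33021 (regions 6, 9, 10 and 12). The non-immune segments held 558129, 279999, 671249 and 201239 counts in the same order. Every CD68 segment was shallower than every non-immune segment, by a factor between 5.97 and 12.8 within a region. The areas differed by a similar factor, between 6.13 and 9.22, in a unit that the worksheet of the authors does not name. Per 1000 area units, the CD68 segments held 9612 ± 2056 counts (SD, n = 4) and the non-immune segments 9736 ± 1118 counts (SD, n = 4). This density was higher in the CD68 segment of 3 of 4 regions, with no detectable difference (exact sign-flip test over the 4 pairs, two-sided, p = 1). With 4 pairs, this test cannot reach a p under 0.05, whatever the values.

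Fewer probes were seen in the CD68 segments, which were also the shallower ones. A count was found for 91.0%, 54.8%, 90.2% and 66.7% of the 20175 probes in the CD68 segments of regions 6, 9, 10 and 12. In the non-immune segments, the percentage was between 98.7% and 99.99%. No probe was without a count in all 4 non-immune segments, whereas 174 were without one in all 4 CD68 segments. The background share, estimated from the mean count of the 10% of probes with the lowest levels, was 30.4% ± 3.66 (SD, n = 4) in CD68 and 29.6% ± 2.03 (SD, n = 4) in non-immune segments. The difference of 0.868 percentage points was smaller than the spread between regions (exact sign-flip test, two-sided, p = 0.5). In region 9, the CD68 segment had the highest background share, 35.9% (95% exact Poisson interval 33.4 to 38.5%), and the lowest total. The intervals cover counting error only. The plot of depth and background shows both segments of each region.

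**Figure D1:**
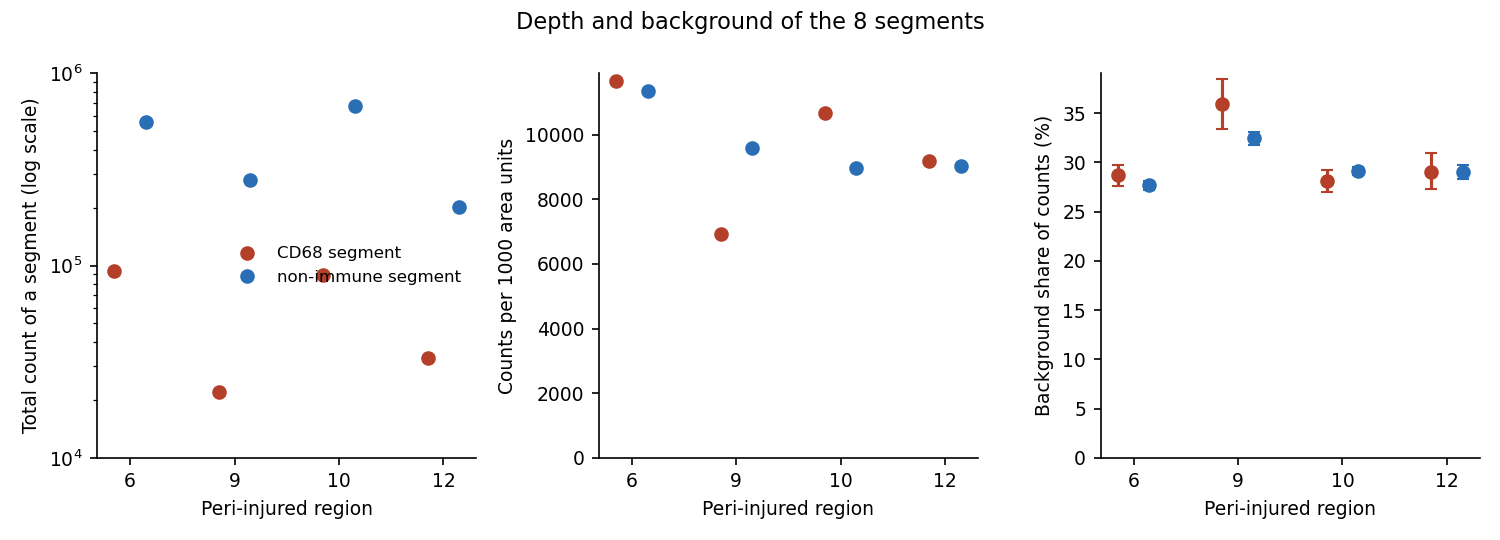
Total count (left, log scale), counts per 1000 area units (middle) and background share of the counts in percent with its 95% Poisson interval (right) for both segments of each peri-injured region, 1 point per segment. The CD68 totals lie between 21955 and 93567, all below the non-immune totals, whereas the background shares of both kinds overlap.

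Both compartments of the peri-injured regions had distinct profiles. The 6000 most abundant probes by mean share were tested, and 667 of them (11.1%) were called, which means an adjusted p of at most 0.05 (edgeR's quasi-likelihood test with the region as a block, Benjamini-Hochberg adjustment over the 6000 probes). In CD68 segments, 265 probes (4.42%) were higher and 402 (6.7%) were lower. The median log2 fold change was 1.67 for the higher and -1.56 for the lower probes, beside -0.195 over all 6000. More than 4-fold differences were found for 96 higher and 71 lower probes, and more than 8-fold differences for 26 higher and 5 lower probes. The count depended on the method, with 325 calls by DESeq2 (195 higher, 130 lower) and 54 by limma on log2 values (44 higher, 10 lower). DESeq2 differed in its scaling as well as its test, and gave no adjusted p for 3024 of the 6000 probes. With the DESeq2 scaling in edgeR, 328 probes were higher and 288 lower.

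The balance of directions depended on the scaling and on the number of probes kept. With TMM normalization, 326 probes were higher and 279 lower, and the median of all probes moved to -0.018. With scaling to the total count, 335 were higher and 255 lower, with a median of 0.022. All 265 higher probes and 255 of the lower probes were called under each of the 4 scalings used, and no probe was called in opposite directions by 2 of them. With 10000 probes kept, 285 were higher and 331 lower, and with no filter 287 and 285. In these fits the upper quartile was taken over the larger sets of probes.

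**Figure D2:**
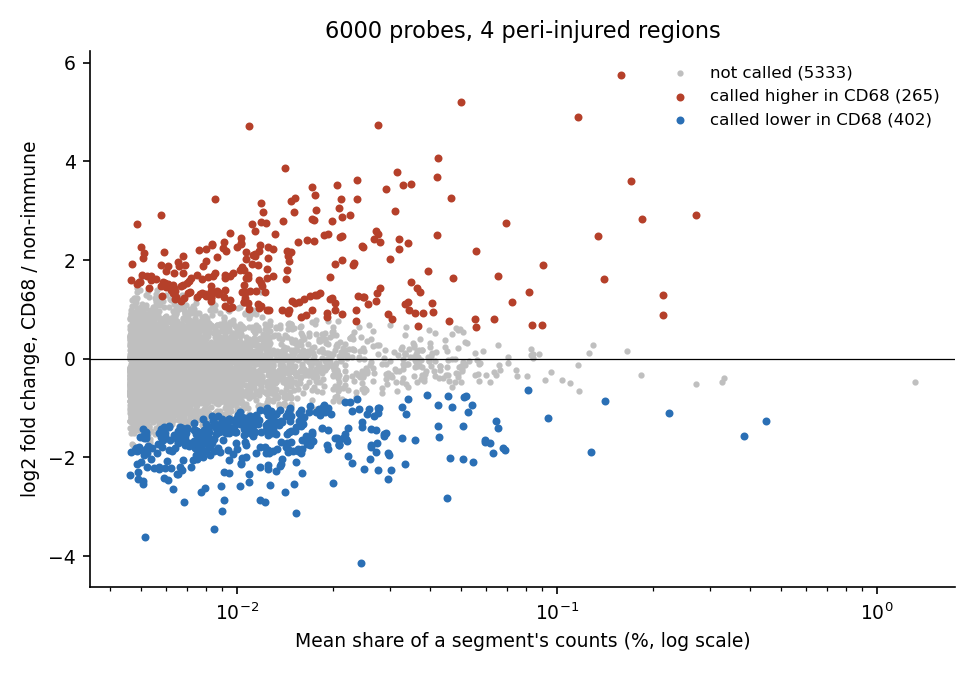
Log2 fold change of CD68 against non-immune segments (y axis) by the mean share of a segment's counts in percent (x axis, log scale) for 6000 probes, with the 265 called higher and the 402 called lower in colour. The largest positive fold change is 5.75, and calls at a low share need a larger fold change than those at a high share.

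Abundant probes were called more often. Among the 1000 most abundant probes, 333 were called, 142 of them higher and 191 lower. The median probe of this set had 44 counts over the 4 CD68 segments and 297 over the 4 non-immune segments. Among the probes ranked 5001 to 6000, 22 were called, and the median probe had 11 CD68 counts. The median log2 fold change was -0.155 in the first and -0.208 in the last 1000. The smallest called fold changes were 0.64 and -0.64 on the log2 scale.

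Called higher probes took a share of the counts that was several times larger in CD68 segments. Together, the 265 probes made up 10.5%, 9.01%, 11.7% and 8.57% of the counts in the CD68 segments of regions 6, 9, 10 and 12. In the non-immune segments they made up 2.51%, 2.09%, 2.88% and 2.09%. The 402 lower probes made up 4.7%, 4.71%, 3.29% and 5.02% of the counts in CD68 segments. Their share in the non-immune segments was 11.5%, 9.43%, 10.1% and 9.58%. Neither list had overlapping shares between the compartments, which follows from the choice of its probes. The 100 most abundant probes of each CD68 segment took between 12.0% and 13.9% of the counts, against 10.1% to 11.8% in non-immune segments. That share was larger in the CD68 segment of 4 of 4 regions, for which the exact sign-flip test gives the smallest p that 4 pairs allow. The 100 probes were chosen in each segment by its own counts, which can raise their share in a shallow segment. The share was not computed at matched totals. The share of the most abundant probe of each segment, which need not be the same probe, went the other way. It was 1.24% of the counts in CD68 and 1.41% in non-immune segments on average. This share was lower in the CD68 segment of 4 of 4 regions, with the same smallest p.

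The called direction was found in each region for 194 higher and 371 lower probes. Of these, 35 higher and 367 lower probes had at least 10 counts in each segment of the higher compartment. That floor is harder to reach in the shallower CD68 segments, so that 35 against 367 is no balance of directions. From the 35 and the 367 probes, the 2 highest and the 2 lowest fold changes are given. The highest fold change was that of RTS0064055. Its counts in CD68 segments were 314, 87, 240 and 84 in regions 6, 9, 10 and 12, and 20, 14, 32 and 13 in the non-immune segments. Per 10000 counts of a segment, these are 33.6, 39.6, 26.8 and 25.4 in CD68 segments, and 0.358, 0.5, 0.477 and 0.646 in non-immune segments. The groups did not overlap, and the highest share was in region 9, the shallowest CD68 segment. The log2 fold change was 5.75 ± 0.25 (SE, edgeR adjusted p = 1.72e-16). This probe ranked 15 of 6000 by its mean share.

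The next was RTS0064820. It had 218, 56, 214 and 58 counts in the CD68 segments of regions 6, 9, 10 and 12, and 33, 12, 75 and 7 in the non-immune segments. Per 10000 counts, the CD68 segments held 23.3, 25.5, 23.9 and 17.6, and the non-immune segments 0.591, 0.429, 1.12 and 0.348. The log2 fold change was 4.89 ± 0.24 (SE, edgeR adjusted p = 1.83e-15). The non-immune values were highest in region 10 and the CD68 values lowest in region 12, with no overlap between the compartments.

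The lowest fold change among these probes was that of RTS0071694. It had 1, 0, 1 and 0 counts in the CD68 segments of regions 6, 9, 10 and 12, against 50, 26, 59 and 24 in the non-immune segments. The mean count of a background probe in the same CD68 segments was 1.33, 0.39, 1.25 and 0.476, so that the probe was not detectable above background there. Over the 4 regions, 2 CD68 counts and 159 non-immune counts gave a share 11.1 times lower in CD68 segments (95% exact interval 3.01 to 92.1, counting error only). The fitted log2 fold change was -3.60 ± 0.65 (SE, edgeR adjusted p = 0.000197). It was not called when the non-immune segments were thinned to the total of their CD68 partner (log2 fold change -2.44, adjusted p = 0.216) or all 8 segments to the shallowest (-2.94, adjusted p = 0.375). Across the alternatives that gave a value, the adjusted p was between 2.82e-05 and 0.375.

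RTS0069290 was the other low probe. It had 4, 2, 1 and 1 counts in CD68 segments and 154, 69, 149 and 62 in non-immune segments of regions 6, 9, 10 and 12. Its share was 0.428, 0.911, 0.112 and 0.303 per 10000 counts in CD68 segments, and 2.76, 2.46, 2.22 and 3.08 in non-immune segments. The log2 fold change was -3.12 ± 0.41 (SE, edgeR adjusted p = 1.43e-06). With all 8 segments thinned to 21955 counts, it was -1.34 and not called (adjusted p = 0.816), with a range of the adjusted p over the alternatives from 1.27e-10 to 0.816. The non-immune shares of this probe were close to each other, while the CD68 shares rest on 1 to 4 counts each.

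**Figure D3:**
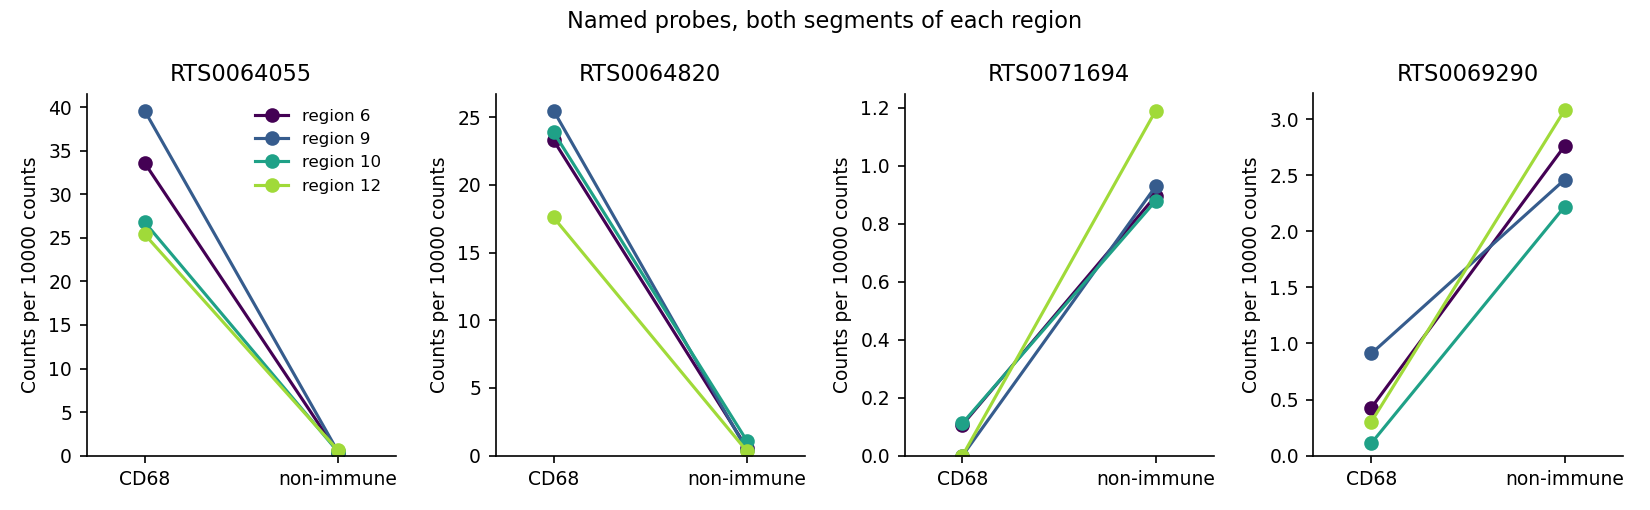
Counts per 10000 counts of a segment (y axis, separate scale per panel) of the 4 named probes in both segments of each region, joined by a line per region. In every region, RTS0064055 and RTS0064820 are higher in the CD68 segment, and RTS0071694 and RTS0069290 are higher in the non-immune segment.

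The regions did not contribute equally. Of the 667 called probes, 565 had the fitted direction in 4 of 4 regions, 85 in 3 and 17 in 2 or fewer. Over all 6000 probes, 28.5% had it in 4 of 4 regions. Normalized counts of both compartments did not overlap for 157 of the 265 higher and 321 of the 402 lower probes, beside 15.4% of all 6000 probes. The calls were made on these same segments, which favours both a shared direction and a lack of overlap. Of the higher probes, 98.1% were higher in the CD68 segment of region 6, and 98.5%, 90.2% and 80% in those of regions 10, 12 and 9. Of the lower probes, between 95.3% (region 12) and 99.8% (region 6) were lower in a region. The median log2 difference of the higher probes was 1.72, 1.03, 1.62 and 1.36 in regions 6, 9, 10 and 12. That of the lower probes was -1.36, -1.66, -1.59 and -1.42. Region 9 thus had the smallest difference for higher and the largest for lower probes. Over all 6000 probes, its median difference was also the lowest, -0.499, against -0.173, -0.119 and -0.3 in regions 6, 10 and 12. The place of region 9 in both lists therefore includes a shift shared by all probes. In the CD68 segment of region 9, 90 of the 402 lower probes had no count at all, against 6 in region 6.

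The count of calls fell most when region 6 or region 10 was left out. Their CD68 segments were the deepest, and the study describes both as closer to the injury than regions 9 and 12, which the labels do not give. Depth and distance from the injury cannot be told apart in these 4 regions. Without region 6, 221 probes were called, and without region 10, 306. Without region 9 there were 715 calls and without region 12 there were 552. Regions 6 and 10 alone gave 747 calls, 325 higher and 422 lower, of which 249 and 333 were among the 265 and 402 of the 4 regions. In all 4 fits that leave out a region, 103 of the higher and 80 of the lower probes were called. Within-region log2 differences over the 6000 probes correlated best between regions 6 and 10 (Pearson's r = 0.489) and least between regions 9 and 12 (r = 0.114). These coefficients are across probes of the same lung, and the regions compared differ in depth and in that distance.

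Some higher probes had much of their count in a single segment. For 27 of the 265 higher probes, at least 50% of the summed normalized CD68 count was in 1 region, which was region 10 for 14 probes, region 6 for 8, region 9 for 3 and region 12 for 2. Among the 402 lower probes, 20 had at least 50% of the non-immune count in 1 region. The leading segment held a median of 36% of the CD68 count of a higher probe and 30.5% of the non-immune count of a lower probe.

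CD68 segments resembled each other less than non-immune segments did. Spearman's rho over the 6000 probes was between 0.169 and 0.524 for pairs of CD68 segments and between 0.694 and 0.838 for pairs of non-immune segments. The median was 0.3 for pairs of CD68 segments, 0.344 for both segments of a region and 0.311 for segments of different compartment and region. At these unequal totals, CD68 segments were thus no more alike than segments of unlike compartments. With every segment thinned to a total of 21955 counts, the ranges were 0.172 to 0.319 for CD68 and 0.304 to 0.33 for non-immune pairs. At that total, both segments of a region had a rho between 0.167 and 0.246, and segments of different compartment and region between 0.15 and 0.242. The thinned medians were 0.261 for CD68 pairs, 0.21 for both segments of a region and 0.197 for different compartment and region. With matched totals, CD68 pairs thus had a higher median than segments of unlike compartments, with overlapping ranges. Thinning matched the totals and not the background shares. Of the variance of log2 normalized counts in the 8 segments, 29.3% lay between compartments, 36.5% between regions and 34.2% in the rest. The share between compartments was 20.1% in injured and 26% in healthy regions. These shares are raw sums of squares, which include noise and depend on the number of regions. They therefore rank neither compartment against region nor the classes against each other.

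Probes that differed between the compartments in other regions were also unequal here. In the injured regions of the same lung, 221 of the same 6000 probes (3.68%) were called, 93 (1.55%) higher and 128 (2.13%) lower in CD68 segments. These segments did not enter the peri-injured fit. The count was 132 without injured region 5, 141 without injured region 11, 139 without the region block (75 higher, 64 lower) and 37 with limma. TMM normalization gave 125 higher and 89 lower probes, so that the balance of directions turned with the scaling here too. Of the 93 higher probes, 91 had a positive log2 fold change in peri-injured regions, and 80 (86%) were called higher there, beside 4.42% of all probes. Their median log2 fold change was 2.23 in peri-injured and 1.38 in injured regions. Of the 128 lower probes, 123 had a negative log2 fold change in peri-injured regions, and 90 (70.3%) were called lower, beside 6.7% of all probes. Their medians were -1.40 and -1.26. None of the 221 probes was called in the opposite direction.

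The 93 probes made up 6.14%, 5.62%, 6.87% and 4.6% of the counts in the CD68 segments of regions 6, 9, 10 and 12. In the non-immune segments they made up 1.23%, 0.985%, 1.63% and 0.975%. The CD68 shares were thus higher in each region, and the groups did not overlap. The 128 probes made up 3.29%, 3.09%, 2.12% and 3.28% in CD68 segments. They made up 7.14%, 5.27%, 5.91% and 5.13% in non-immune segments, again without overlap. By region, the median log2 difference of the 93 probes was 2.24, 1.52, 2.23 and 1.93, and that of the 128 probes was -1.30, -1.44, -1.58 and -1.13.

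**Figure D4:**
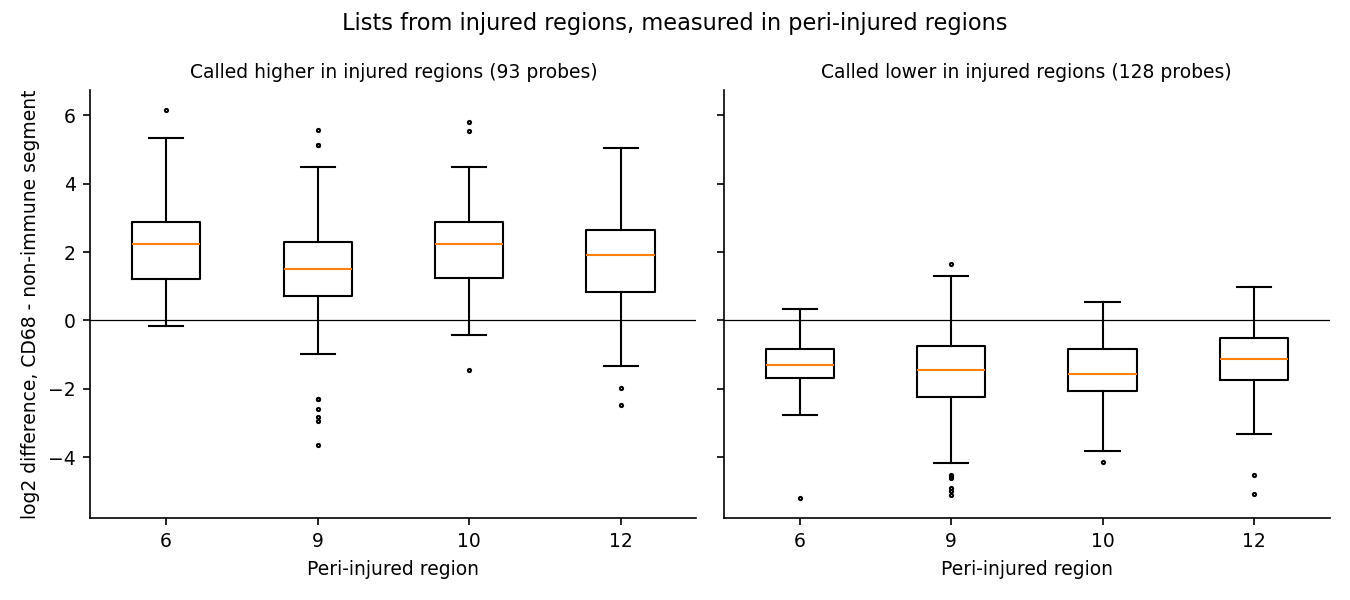
Log2 difference of the normalized count + 1 between CD68 and non-immune segment (y axis) in each peri-injured region (x axis), for the 93 probes called higher and the 128 probes called lower in CD68 segments of injured regions. Boxes give the quartiles with the median as a line, whiskers reach to the last value within 1.5 times the box, and points are single probes. The medians are above 0 in every region for the first list and below 0 for the second.

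In the healthy regions of the other mouse, 50 probes (0.833%) were called, 26 (0.433%) higher and 24 (0.4%) lower in CD68 segments. With scaling to the total count, 38 were higher and 16 lower, and without the region block 24 and 13. Of the 26 higher probes, 23 were called higher in peri-injured regions, beside 4.42% of all probes, and their shares of the counts were 2.76%, 2.38%, 2.74% and 2.15% in CD68 against 0.373%, 0.293%, 0.362% and 0.295% in non-immune segments. Of the 24 lower probes, 10 were called lower in peri-injured regions, beside 6.7% of all probes, and 20 had a negative log2 fold change. Their median there was -0.999, against -2.08 in healthy regions. The shares of these 24 probes were 0.706%, 0.569%, 0.221% and 0.621% in CD68 and 1.63%, 0.78%, 0.823% and 0.77% in non-immune segments. In all 3 classes of regions, 20 probes were called higher and 9 lower, which cannot exceed the 26 and 24 of the healthy regions. The count of healthy calls was 9 without region 1 and 19 without region 3. By limma it was 0, with 495 probes at an unadjusted p under 0.05.

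Read the other way, probes called in peri-injured regions were often in the same direction elsewhere, with smaller differences. Of the 265 higher probes, 221 (83.4%) had a positive log2 fold change in injured regions and 217 (81.9%) in healthy regions, beside 36.4% and 41.5% of all 6000 probes. Their median log2 fold change was 0.58 and 0.65 there, against 1.67 in the regions that chose them. Of the 402 lower probes, 376 (93.5%) were negative in injured and 322 (80.1%) in healthy regions, beside 63.6% and 58.5% of all probes. None was called in the opposite direction. The probes were chosen by the peri-injured values, which favours large values in these regions.

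Where the compartments differed by another amount in peri-injured regions was tested directly, as an interaction in a fit over all 24 segments on their 6000 most abundant probes. Against injured regions, 78 probes (1.3%) were called (edgeR's quasi-likelihood test, adjusted p of at most 0.05). For 68 of them, the log2 difference of CD68 minus non-immune segments was larger in peri-injured regions, by a median of 1.94, and for 10 it was smaller. Of the 68 probes, 65 were called higher in CD68 segments of peri-injured regions, beside 4.42% of all probes in that test, which the use of the same peri-injured segments favours. In injured regions, 25 were called higher, beside 1.55% of all probes. For 60 of the 68 probes, the CD68 level moved more than the non-immune level between the classes, with a median log2 difference between peri-injured and injured regions of 1.34 in CD68 and -0.49 in non-immune segments. For 9 of the 68, at least 50% of the peri-injured CD68 count was in 1 region, which was region 10 for 5 of them. Without peri-injured region 6, 44 probes were called, and without region 10, 50. With limma on log2 values, 0 probes were called (500 with an unadjusted p under 0.05), and with DESeq2, 35. Without the region block, the count was 49.

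Against healthy regions, 32 probes (0.533%) were called, 30 with a larger and 2 with a smaller difference in peri-injured regions. The median log2 difference of the 30 probes was 2.57. The CD68 level moved more than the non-immune level for 25 of them. Of the 32 probes, 18 were also called, in the same direction, in the comparison with injured regions, which shares the peri-injured segments. With limma, 0 probes were called (621 with an unadjusted p under 0.05), with DESeq2 7, and without the region block 9. The count fell to 14 without peri-injured region 6, to 9 without healthy region 1 and to 18 without healthy region 3. This comparison also sets 1 mouse against another.

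Levels of the 2 highest probes show how the classes differed. RTS0064820 was between 17.6 and 25.5 per 10000 counts in CD68 segments of peri-injured regions, between 3.9 and 20.2 in those of injured and between 4.58 and 6.59 in those of healthy regions. In non-immune segments it was at most 1.14 in every class. The CD68 levels of peri-injured regions did not overlap with those of healthy regions, and did with those of injured regions. The log2 fold change of CD68 against non-immune segments was 3.32 ± 0.18 (SE) in injured and 3.19 ± 0.35 (SE) in healthy regions. It was larger in peri-injured regions by 1.67 against injured (edgeR interaction, adjusted p = 0.000446) and by 1.91 against healthy regions (adjusted p = 0.0253).

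RTS0064055 was between 25.4 and 39.6 per 10000 counts in CD68 segments of peri-injured regions, between 9.61 and 90.2 in injured and between 2.67 and 5.96 in healthy regions. The highest CD68 level of the series was thus in an injured region, and the ranges of peri-injured and injured regions overlapped. Injured regions 5 and 11 (67.1 and 90.2) lay above every peri-injured region. Injured regions 4, 7 and 8 (15, 10.3 and 9.61) lay below every one. The fold change was larger in peri-injured than in healthy regions by 2.62 on the log2 scale (edgeR interaction, adjusted p = 0.013), and the difference of 0.98 from injured regions was not called (adjusted p = 0.175). In healthy regions 1, 3 and 13, the non-immune counts of this probe were 10, 8 and 1. The mean counts of a background probe there were 3.19, 5.3 and 1.22. The interaction against healthy regions thus rests on few counts, some of them near background, so that its size is uncertain.

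The 2 low probes were not called between the compartments in either of the other classes. RTS0071694 had a median of 0.0534 per 10000 counts in CD68 segments of peri-injured regions, 0.356 in injured and 1.11 in healthy regions, and medians of 0.912, 0.638 and 0.735 in non-immune segments. Its log2 fold change was -0.77 ± 0.39 in injured (SE, edgeR adjusted p = 0.378) and 0.35 ± 0.49 in healthy regions (SE, adjusted p = 0.974). The interaction was called against healthy regions (-3.71, adjusted p = 0.0267) and not against injured regions (-2.73, adjusted p = 0.145). Both values rest on the 2 CD68 counts of peri-injured regions, which were not above background, so that their size is uncertain. For RTS0069290, the log2 fold change was -0.82 ± 0.34 in injured (SE, edgeR adjusted p = 0.247) and -0.44 ± 0.48 in healthy regions (SE, adjusted p = 0.949). It had non-immune levels between 2.22 and 3.08 in peri-injured regions, between 0.556 and 1.46 in injured and between 0.872 and 1.28 in healthy regions. Its non-immune levels in peri-injured regions lay above those of both other classes, while the CD68 levels of all 3 classes overlapped. The interaction was called neither against injured (-2.20, edgeR adjusted p = 0.0555) nor against healthy regions (-2.41, adjusted p = 0.152).

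The 265 higher probes made up between 8.57% and 11.7% of the counts in CD68 segments of peri-injured regions, between 2.55% and 6.36% in injured and between 3.54% and 4.27% in healthy regions. In non-immune segments the range over the 3 classes was 1.61% to 2.88%. The 402 lower probes made up between 9.43% and 11.5% of the counts in non-immune segments of peri-injured regions, between 3.77% and 7.35% in injured and between 6.48% and 6.81% in healthy regions. In CD68 segments the range was 2.74% to 5.09%. These shares are descriptions, since the lists were chosen by the peri-injured values.

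**Figure D5:**
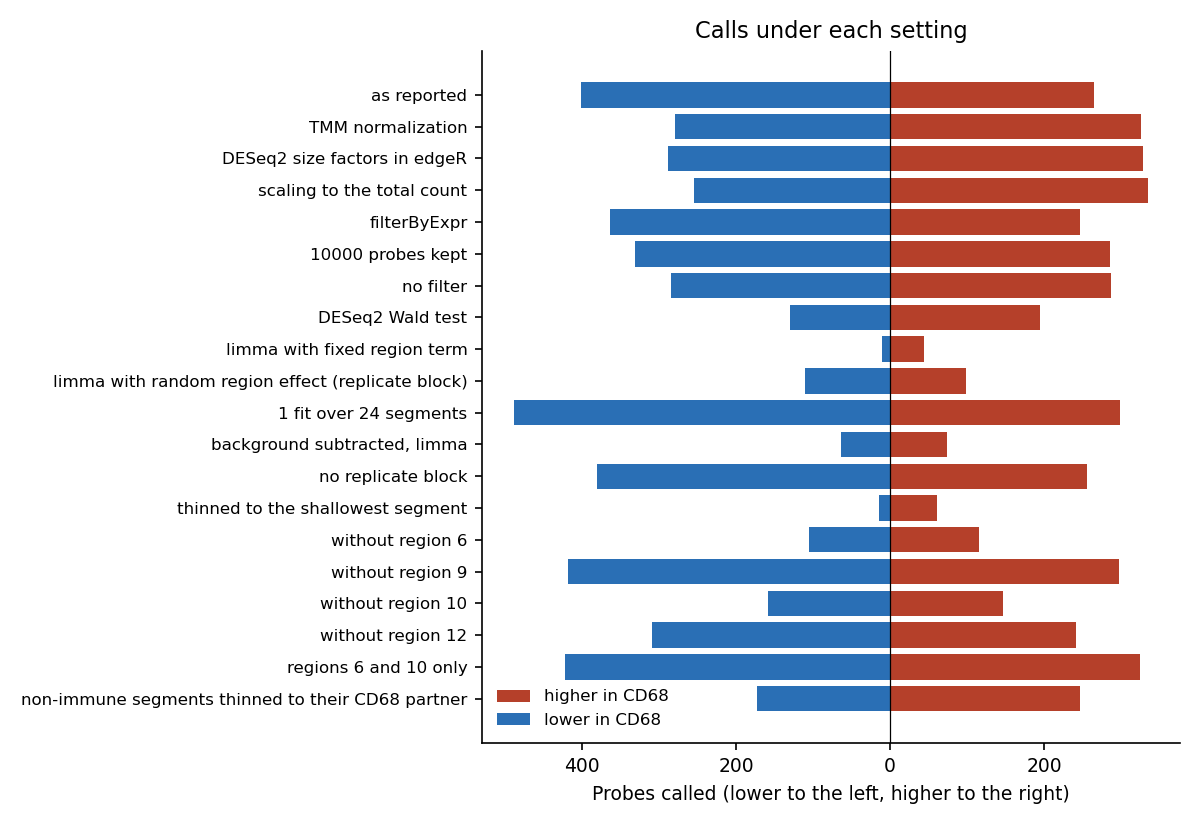
Number of probes called lower (left of 0) and higher (right of 0) in CD68 segments of peri-injured regions in the reported fit and under each other setting. The reported fit gives 402 and 265 probes, limma with a fixed region term 10 and 44, and thinning to the shallowest segment 14 and 61.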

How the data were processed

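Tags of the NanoString mouse Whole Transcriptome Atlas were counted in 24 tissue segments. The deposited values are raw counts. To obtain them, the authors trimmed and stitched the reads, aligned them to the tags and removed duplicates by molecular identifier. They are not filtered, and a probe without a line was read as 0. The sequences of the probes and their genes were not used here. Segment areas came from the deposited worksheet. The labels name the build mm10.

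Counts were normalized to the upper quartile (75th percentile) of the 6000 most abundant probes (mean share in the 8 segments), in place of the study's limit of quantitation. In regions 6, 9, 10 and 12, it was 10, 3, 9 and 4 counts in CD68 and 54, 26, 63 and 19 in non-immune segments. With such small whole numbers, the scaling of the CD68 segments is coarse, and its part in the balance of directions was not tested. The counts were tested with edgeR 4.0.16 in R 4.3.3, with a fixed region term. Injured and healthy regions were tested over the same probes. The standard error is the log2 fold change divided by the square root of F. Tests were checked on simulated data. The study used a linear mixed model.

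The region number pairs the segments, since a region is 1 place in the section. Their deviations from the group means correlated between 0.0242 and 0.118, against -0.0729 to 0.0108 for other pairs. The background share is the mean count of the least abundant 10% of probes in healthy and injured segments, times the number of probes, over the total. Thinning drew counts at random with a fixed seed. limma 3.58.1, with a pseudocount of 1, and DESeq2 1.42.0, with its own scaling, gave alternatives. Named probes were called, had the called direction in all regions and at least 10 counts in each segment of the higher compartment, and the 2 highest and 2 lowest fold changes were taken. Probe lists, regions and rules were chosen with earlier results of these data known. The reaction without tissue was not used. Values per segment are limited by totals between 21955 and 671249 counts.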

Additional observations from a re-analysis of the deposited data

Results flagged for a closer look

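The background share of the CD68 segment of region 9, 35.9%, stood apart from those of the other CD68 segments of peri-injured regions, whose mean was 28.6% ± 0.488 (SD, n = 3). It was the only value to stand apart among 30 checks of segment measures and named probes, and chance alone gives about 1 in 20. The non-immune segment of the same region had the highest background share of its group as well, 32.4%.

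The difference between CD68 and non-immune segments was not the same in peri-injured and injured regions for 78 probes, and not the same in peri-injured and healthy regions for 32 probes. Among the named probes, RTS0064820 had a fold change that was larger in peri-injured regions by 1.67 against injured and by 1.91 against healthy regions on the log2 scale. RTS0064055 had one larger by 2.62 against healthy regions, whose size is uncertain because its healthy non-immune counts were few and some were near background. RTS0071694 had a fitted interaction of -3.71 against healthy regions, whose size is uncertain because its 2 peri-injured CD68 counts were not above background. The regions 9 and 12 had the shallowest CD68 segments and are described by the study as farther from the injury. With regions 6 and 10 alone, chosen after seeing the data, 88 probes were called against injured and 44 against healthy regions. The part of depth, of distance from the injury and of the single mouse of each class in these differences was not tested.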

How the results depend on the processing

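Under the alternatives computed, the log2 fold changes of the 4 named probes kept their direction in 75 of 75 values and their call in 72. The alternatives used the segments that chose these probes, which favours a kept direction. Of the 3 lost calls, 2 were those of RTS0071694 and 1 that of RTS0069290, all in thinned counts. DESeq2 gave RTS0071694 no adjusted p.

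The calls in peri-injured regions went from 667 (265 higher, 402 lower) to 325 with DESeq2 (130 lower). With limma and a fixed region term there were 54 (44 higher, 10 lower). The same limma fit on background-subtracted counts gave 138 (74 higher, 64 lower). Thinning all segments to the shallowest gave 75 calls (61 higher, 14 lower), and thinning each non-immune segment to its CD68 partner, an alternative added after seeing the data, gave 419 (173 lower). Scaling to the total count gave 255 lower probes. With the region as a random block in limma there were 209 calls (98 higher, 111 lower), and without the replicate block 637 (256 higher, 381 lower). Leaving out a region gave between 221 and 715 calls, between 116 and 297 higher and between 105 and 418 lower. The thinned and left-out fits had fewer counts or fewer segments, and for the other settings the cause was not tested.

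The interaction counts of 78 and 32 probes became 35 and 7 with DESeq2, 0 and 0 with limma, 49 and 9 without the block, and 0 and 1 with thinned counts (206 and 264 with an unadjusted p under 0.05 in edgeR). Leaving out a region gave between 44 and 95, and between 9 and 41. With the 6000 probes of the peri-injured segments, added after seeing the data, there were 78 and 23.

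The injured calls went from 221 to 37 with limma, 139 without the block and 87 with thinned counts, and lay between 132 and 233 with a region left out, the lowest being without region 5, and 141 without region 11. The healthy calls went from 50 to 0 with limma (495 with an unadjusted p under 0.05) and to 0 with thinned counts in edgeR (183), and lay between 9 and 50 with a region left out. Without the block, the lower calls went from 128 to 64 in injured and from 24 to 13 in healthy regions. The higher calls went from 93 to 75 and from 26 to 24. Thinned counts gave 59 higher and 28 lower calls in injured regions. With scaling to the total count, the lower calls of healthy regions went from 24 to 16.

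The background shares of 30.4% in CD68 and 29.6% in non-immune segments became 24.9% and 22.5% when taken from the least abundant 5% of probes, and 37.5% and 37.5% when taken from 20%. With a region left out they lay between 28.6% and 31.2%, and between 28.6% and 30.2%. The median kept probe had 16 counts over the 4 CD68 segments, against 111 over the non-immune segments.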
